A study of Rattus norvegicus with 22 samples.

Results

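The genes described here are 8 small leucine-rich proteoglycan genes (Dcn, Bgn, Aspn, Lum, Fmod, Prelp, Omd and Ogn) and Vcan, which encodes the large proteoglycan versican. They were measured in engineered cardiac tissue from rat embryos under cyclic stretch, the kinase inhibitor BIRB796, or both. A probe was taken as a member when the gene name in the scanner files was among those 9 symbols. This gave 11 of the 30367 probes on the array, with a pair of probes each for Bgn and Vcan. All 9 genes were among the 23479 genes tested, and all 11 probes were well above background on all 22 arrays.

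Each tissue was made from ventricle cells of Sprague Dawley rat embryos at gestational day 14.5, cast in gel between the anchors of a Tissue Train plate, and grown for 7 days. The stretch group (7 arrays) received 5% cyclic elongation at 0.5 Hz for 48 h from culture day 5. The stretch with BIRB796 group (4 arrays) received the same stretch together with 10 µM BIRB796, which blocks p38 MAP kinases. The BIRB796 group (4 arrays) received the inhibitor without stretch, and the control group (7 arrays) received neither. All groups shared a growth medium with fetal bovine serum and chicken embryo extract. The design text calls the replicates biological and does not tie them to litters or cultures, and the spread that the p-values rest on may thus be partly technical.

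Small leucine-rich proteoglycans are secreted proteins built on leucine-rich repeats. Most carry chondroitin, dermatan or keratan sulfate chains, and several bind collagen fibrils and set how the fibrils assemble. Decorin and biglycan also bind growth factors of the TGF-beta family. Versican binds hyaluronan and fills the loose matrix of the embryonic heart, including the endocardial cushions. In the heart these genes are known mainly as products of fibroblasts, valve interstitial cells and other mesenchymal cells.

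The probes are 60 bases long, and the scanner files place them on the rn4 build without exon or UTR annotation. Dcn and Lum lie side by side on chromosome 7 in RefSeq's GRCr8 annotation. Their probes are shown because they shared the longest run of bases between any pair of member probes, 12 bases in capitals, held by 2 of 30367 probes (0.00659%). The next longest shared run was 8 bases. The Dcn probe lies at chr7:35037331-35041132 (+), a span of 3802 bases for a 60-base probe, and its 10 spots were averaged. The Lum probe lies at chr7:35086409-35086468 (+).
Dcn: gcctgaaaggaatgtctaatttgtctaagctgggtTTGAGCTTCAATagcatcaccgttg
Lum: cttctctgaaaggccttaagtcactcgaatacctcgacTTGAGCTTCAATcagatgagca

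The second Bgn probe, at chrX:159392152-159392211 (+), is shown because it gave other values than the brighter Bgn probe at chrX:159393349-159393408 (+). The Aspn probe, at chr17:21035836-21035895 (-), is shown because Aspn separated the BIRB796 arrays from the controls of the same scan session.
Bgn, second probe: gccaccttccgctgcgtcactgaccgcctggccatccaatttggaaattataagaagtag
Aspn: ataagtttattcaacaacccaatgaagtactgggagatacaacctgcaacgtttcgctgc

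Ogn, Omd and Aspn form a run of neighbouring genes on chromosome 17 in GRCr8, and Prelp and Fmod are neighbours on chromosome 13. Ogn and Omd levels correlated across samples, with the values given after the comparisons. The 250 bases before each gene's start in RefSeq (GRCr8, minus strand) are therefore printed, at chr17:15258996-15259245 for Ogn and chr17:15274871-15275120 for Omd. Capitals mark the longest run that both windows hold, TTGAATTCCAC. It begins 45 bases before the start of Ogn and 169 bases before that of Omd, and 4 of 33469 promoter windows of that length (0.012%) held it on either strand. The match is a description of the letters only.
Ogn: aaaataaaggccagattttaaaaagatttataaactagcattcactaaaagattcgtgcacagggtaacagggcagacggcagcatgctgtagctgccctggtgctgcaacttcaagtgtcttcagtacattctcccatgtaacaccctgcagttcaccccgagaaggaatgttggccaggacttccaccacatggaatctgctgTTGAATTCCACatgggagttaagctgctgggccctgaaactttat
Omd: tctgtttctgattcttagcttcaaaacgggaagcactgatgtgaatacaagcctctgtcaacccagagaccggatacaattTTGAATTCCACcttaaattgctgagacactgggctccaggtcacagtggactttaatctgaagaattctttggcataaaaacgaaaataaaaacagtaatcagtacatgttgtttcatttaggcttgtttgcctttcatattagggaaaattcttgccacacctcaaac

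A level below is the log2 of an array's processed signal minus the log2 of that array's 75th percentile, so 0 means a signal equal to the 75th percentile. Levels of different probes were not set against each other. The arrays were scanned in 3 sessions, read from the file headers. Session 1 held stretch replicates 1 to 3 and control replicates 1 to 3, with same-numbered arrays on the same slide. Session 2 held stretch replicates 4 to 7 alone. Session 3 held the stretch with BIRB796 arrays, the BIRB796 arrays and control replicates 4 to 7. The 75th percentile of the signal was lowest on the session 2 arrays (510 to 1429, the lowest being stretch replicate 7), against 1870 to 3062 for session 1 arrays and 1237 to 2135 for those of session 3. Stretch replicates 4 and 5 differed by less than the noise between repeated spots and were counted as 1 sample. The fit therefore held 21 samples. All 12 cardiomyocyte markers were above background on all 22 arrays.

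**Figure D1:**
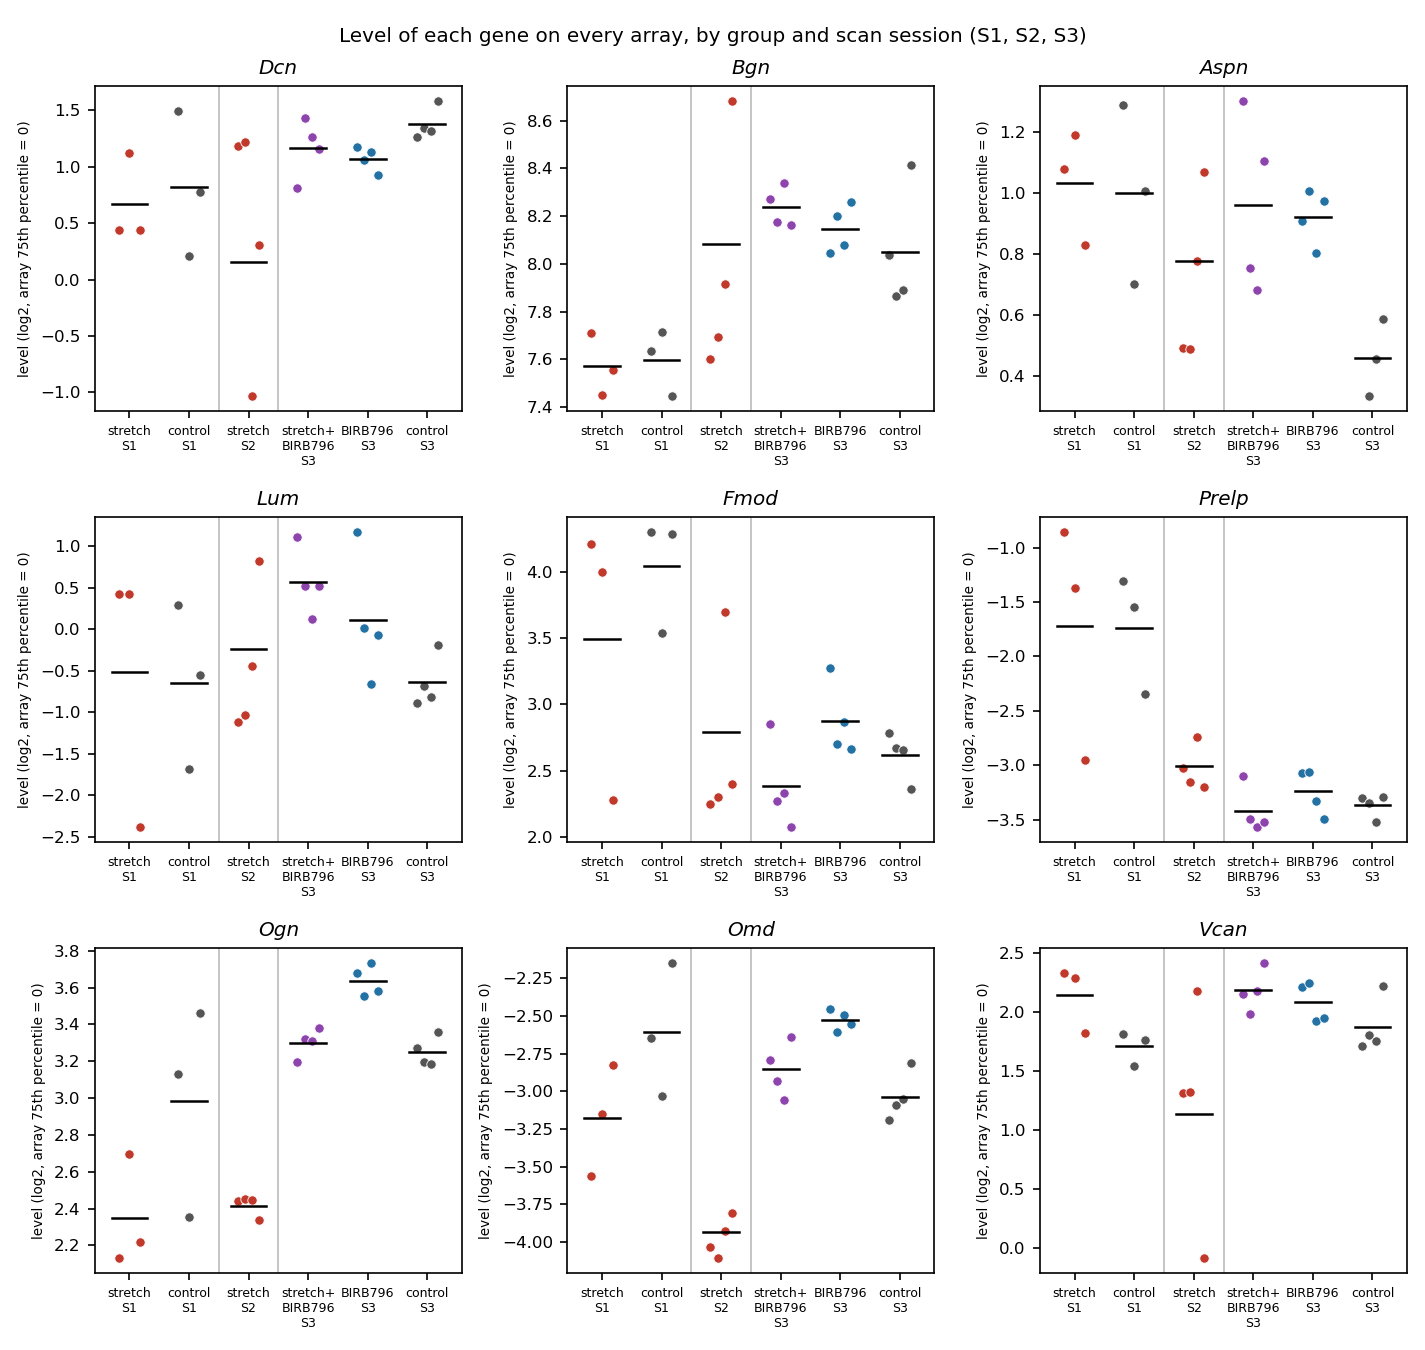
Level (log2, array 75th percentile = 0) of each of the 9 genes on every array, by group and scan session (S1 to S3); points are arrays and bars are means, with stretch replicates 4 and 5 counted once. Ogn lies between 2.13 and 2.70 on all 7 stretch arrays, while 6 of 7 control arrays lie between 3.13 and 3.46. The vertical axes differ between panels.

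In the fit over all samples, Ogn and Omd had the lowest unadjusted p-values of the 9 genes for cyclic stretch. Both had lower values in stretched tissue, but neither passed the test. Ogn encodes osteoglycin (mimecan), a small proteoglycan of fibrous tissues, and Omd encodes osteomodulin, a keratan sulfate proteoglycan first known from bone. In session 1, Ogn levels were 2.13, 2.70 and 2.22 in stretch replicates 1 to 3 and 3.13, 2.36 and 3.46 in control replicates 1 to 3. Stretch was lower on slides 1 and 3 and higher on slide 2, and the groups overlapped through control replicate 2. Omd levels were -3.56, -3.15 and -2.83 in stretch and -2.64, -3.03 and -2.15 in control. Stretch was lower on all 3 slides, by 0.92, 0.12 and 0.68, although stretch replicate 3 lay above control replicate 2.

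With the scan session as a term, limma gave a log2 fold change for stretch against control of -0.63 ± 0.21 (SE) for Ogn (unadjusted p = 0.0073) and -0.57 ± 0.21 for Omd (unadjusted p = 0.0134). These are 1.55-fold and 1.49-fold lower levels, each with an adjusted p of 1.00. Of the 9 genes 0 were called at an adjusted p under 0.05, against 0% of all genes. At an unadjusted p under 0.05 there were 2 of the 9, against 3.2% of all genes. The stretch arrays of session 2, which has no control, had Ogn levels of 2.44, 2.45, 2.45 and 2.34 and Omd levels of -4.03, -4.11, -3.93 and -3.81. Those Ogn levels lie within the session 1 stretch range, and those Omd levels lie below every other array. The processed Omd signals of session 2 were 36 to 87, against 154 to 692 on the other arrays. Session and stretch cannot be told apart for the session 2 levels. All 12 macrophage and leukocyte markers had negative values for stretch, with a median of -0.62 and 0 called. The log2 of their summed level was 5.34 to 6.5 in stretch and 5.58 to 7.04 in control in session 1. Of the 10 endothelial markers 8 had negative values and 0 were called. Their mean levels did not overlap, at -2.39 to -2.14 in stretch and -2.02 to -1.81 in session 1 control, while the log2 of their summed level overlapped, at 2.17 to 2.34 in stretch and 2.32 to 2.59 in session 1 control. The smooth muscle median was 0.50, with 8 of 10 values positive, 0 called, and a log2 summed level of 6.12 to 6.92 in stretch and 5.74 to 6.45 in session 1 control. The part of these lists in the result was not tested.

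**Figure D2:**
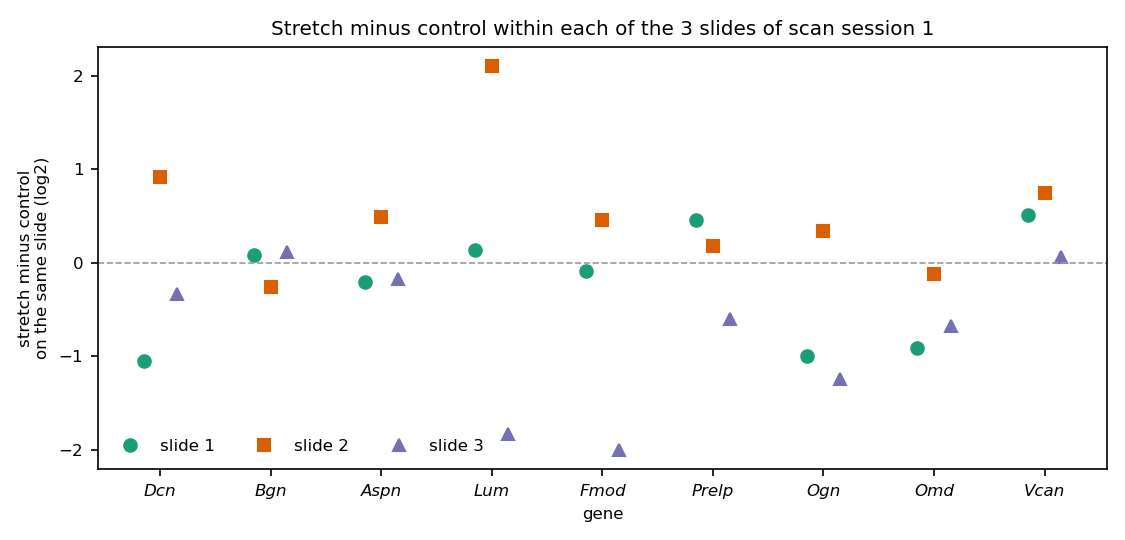
Difference in level (log2) between the stretch and the control array of the same slide, for each gene and each of the 3 slides of scan session 1. Omd is below 0 and Vcan above 0 on all 3 slides, and Lum spans 2.10 on slide 2 to -1.83 on slide 3.

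The call for stretch depended on how scan sessions were handled. With only the file set (replicates 1 to 3 of stretch and control against the rest) as the batch term, session 2 stretch arrays were set against session 3 controls. Ogn (-0.74 ± 0.14, adjusted p = 0.0132) and Omd (-0.75 ± 0.15, adjusted p = 0.0136) were then called, along with 8.7% of all genes. With no batch term Ogn was called (-0.76 ± 0.15, adjusted p = 0.0306) with 1.26% of all genes, and Omd was not (adjusted p = 0.0736). In both of these fits session and stretch cannot be told apart for the session 2 arrays. With the session term the stretch value rests on the session 1 arrays, while its SE uses the spread of all 21 samples. Within session 1 alone, the values were -0.63 ± 0.33 for Ogn and -0.57 ± 0.30 for Omd (limma, unadjusted p = 0.100 and 0.105). Vcan then had the lowest unadjusted p of the 9 genes, at 0.0751. The adjusted p within session 1 alone was 1.00 for Ogn and Omd.

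Vcan was the member whose stretch arrays all lay above the controls in session 1. Its levels were 2.33, 2.29 and 1.83 in stretch and 1.82, 1.55 and 1.77 in control, so the lowest stretch array and the highest control were nearly equal. The fitted log2 fold change was 0.44 ± 0.36 (adjusted p = 1.00). For 1 of 9 genes the groups did not overlap in session 1, against 9.31% of all genes. The second Vcan probe, at chr2:19714573-19714632 (-), overlapped between the groups and gave -0.001 ± 0.312. In session 2 Vcan ranged from -0.08 on stretch replicate 7 to 2.18 on stretch replicate 6.

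Fmod and Lum encode the keratan sulfate proteoglycans fibromodulin and lumican, and Prelp encodes PRELP. All 3 proteins bind collagen. In session 1 these 3 genes varied more within the stretch group than between the groups. Fmod levels were 4.21, 3.99 and 2.28 in stretch and 4.30, 3.54 and 4.28 in control. Lum levels were 0.43, 0.42 and -2.38 in stretch and 0.29, -1.68 and -0.55 in control. Prelp levels were -0.85, -1.37 and -2.95 in stretch and -1.31, -1.55 and -2.35 in control. Stretch replicate 3 was the lowest array of session 1 for all 3 genes. By mean level, that array was the lowest or highest of session 1 in all 7 marker lists. It had the lowest mean level of session 1 for the smooth muscle (0.46), fibroblast (1.03), macrophage (0.66), endothelial (-2.39) and chondrocyte (-3.90) lists. It had the highest for the cardiomyocyte (5.43) and epicardial (-0.63) lists. By the log2 summed level it was neither lowest nor highest for the smooth muscle (6.12) and endothelial (2.34) lists. Their part in the result was not tested. Without it the Fmod log2 fold change for stretch was 0.06, against -0.55 with it.

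Dcn, Bgn and Aspn encode decorin, biglycan and asporin, the members of the family closest to each other in sequence. Their fitted log2 fold changes for stretch were -0.16 ± 0.40 for Dcn, -0.03 ± 0.21 for Bgn and 0.03 ± 0.20 for Aspn. The 95% intervals were -0.998 to 0.687 for Dcn, -0.47 to 0.41 for Bgn and -0.39 to 0.45 for Aspn. The interval was widest for Dcn. Dcn was 0.44, 1.12 and 0.44 in stretch and 1.49, 0.21 and 0.78 in control, and the direction differed between slides.

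**Figure D3:**
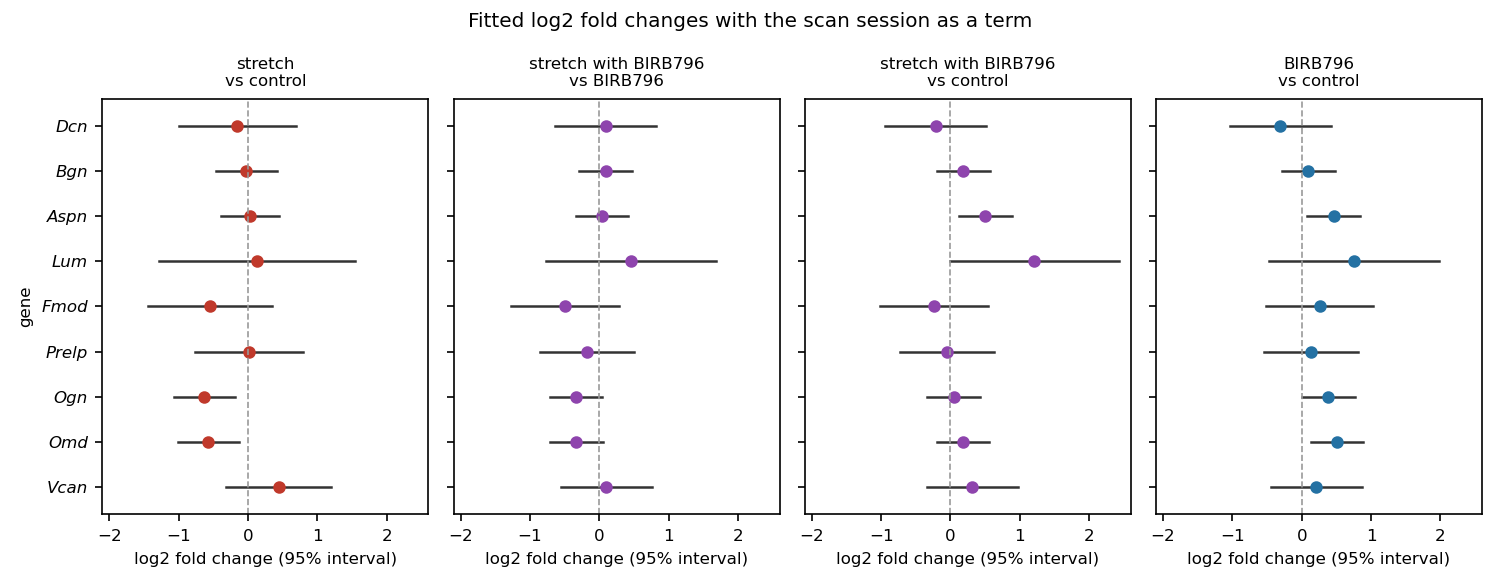
Fitted log2 fold change (points) with 95% intervals (bars) for each of the 9 genes in 4 comparisons, with the scan session as a term; the dashed line is 0. No gene passed an adjusted p under 0.05, and the widest intervals are those of Lum.

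BIRB796 without stretch went with higher Omd, Aspn and Ogn levels in session 3, each without overlap with the controls, but none was called in the fit over all samples. Ogn levels were 3.68, 3.56, 3.74 and 3.58 in BIRB796 and 3.27, 3.20, 3.18 and 3.36 in control. Omd levels were -2.45, -2.61, -2.49 and -2.55 in BIRB796 and -3.19, -3.09, -3.05 and -2.81 in control. All 4 inhibitor arrays lay above all 4 controls for both genes. Aspn, which encodes asporin, a collagen- and TGF-beta-binding relative of decorin, had levels of 0.91, 1.01, 0.80 and 0.97 in BIRB796. It had 0.34, 0.46 and 0.59 in control replicates 5 to 7, and its spot on control replicate 4 was flagged by the scanner software and left out.

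The log2 fold changes of BIRB796 against control were 0.51 ± 0.18 for Omd (1.43-fold), 0.46 ± 0.18 for Aspn (1.38-fold) and 0.38 ± 0.18 for Ogn (1.31-fold). Their adjusted p-values were 0.501, 0.616 and 0.746. Of the 9 genes 0 were called at an adjusted p under 0.05, against 0% of all genes. At an unadjusted p under 0.05 there were 3 of the 9, against 6.58% of all genes. Of the 9 fold changes 8 were positive, with a median of 0.26, against a median of 0.01 over all genes. The groups did not overlap for 4 of 9 genes, against 11.9% of all genes. The fourth was Dcn, with levels of 1.17, 1.06, 1.13 and 0.92 in BIRB796 and 1.26, 1.35, 1.32 and 1.59 in control. Dcn thus lay lower in inhibitor-treated tissue, with a fold change of -0.31 ± 0.35.

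Fitted on session 3 alone, where Ogn and Omd varied less within groups than in session 1, Ogn (0.38 ± 0.07, adjusted p = 0.0342) and Omd (0.51 ± 0.11, adjusted p = 0.0421) rose, with 1.96% of all genes called (0.997% higher and 0.963% lower). Aspn (adjusted p = 0.131) and Dcn (-0.31 ± 0.13, adjusted p = 0.23) did not pass. That fit had no slide term, and BIRB796 replicates 2 to 4 shared slide 9 while control replicates 5 and 6 shared slide 7. With slide as a random block over all samples, the values were 0.35 ± 0.22 for Ogn (adjusted p = 0.907) and 0.44 ± 0.18 for Omd (adjusted p = 0.658). Those session 3 calls were also fragile. Ogn was called in 3 of 12 fits that left out 1 sample and Omd in 2 of 12, with fold changes of 0.35 to 0.42 and 0.46 to 0.59. Neither was called without control replicate 4, 5 or 6, without any of the BIRB796 replicates, or without stretch with BIRB796 replicate 3 or 4. Omd also lost its call without stretch with BIRB796 replicate 2. With control replicates 5 and 6 averaged, 0 genes were called. On slide 6, the slide of session 3 that held both groups, BIRB796 lay above control by 0.41 for Ogn and 0.74 for Omd.

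The 2 Bgn probes gave unlike values for the inhibitor. The brighter probe had levels of 8.04, 8.20, 8.08 and 8.26 in BIRB796 and 8.04, 7.87, 7.89 and 8.41 in control, a fold change of 0.09 ± 0.18. The second probe had 4.12, 4.12, 4.11 and 4.11 in BIRB796 and 3.67, 3.55, 3.43 and 3.98 in control, with a fold change of 0.46 ± 0.20 (adjusted p = 0.691). All 4 BIRB796 values of the second probe lay above all 4 controls. Over the 21 samples, after centring each session, the Bgn probes correlated with r = 0.594 and the Vcan probes with r = 0.859, as a description. No member probe was marked as saturated, and the brighter Bgn probe had processed signals of 209548 to 533881. Its control levels above came, in the order given, with array 75th percentiles of 1711, 2135, 2048 and 1237. For its BIRB796 levels these were 1967, 1484, 1604 and 1409. In both groups the level was higher where the percentile was lower. The highest level, 8.68, was on stretch replicate 7 (75th percentile 510). Whether this probe's response was compressed was not tested, and the other Bgn values come from it.

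Lum, Fmod, Prelp and Vcan overlapped between BIRB796 and control. Lum levels were 1.17, 0.02, -0.66 and -0.07 in BIRB796 and -0.89, -0.68, -0.81 and -0.19 in control, and the fold change was 0.76 ± 0.58, with a 95% interval of -0.47 to 1.98. The fold changes were 0.26 ± 0.37 for Fmod, 0.13 ± 0.32 for Prelp and 0.21 ± 0.31 for Vcan.

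**Figure D4:**
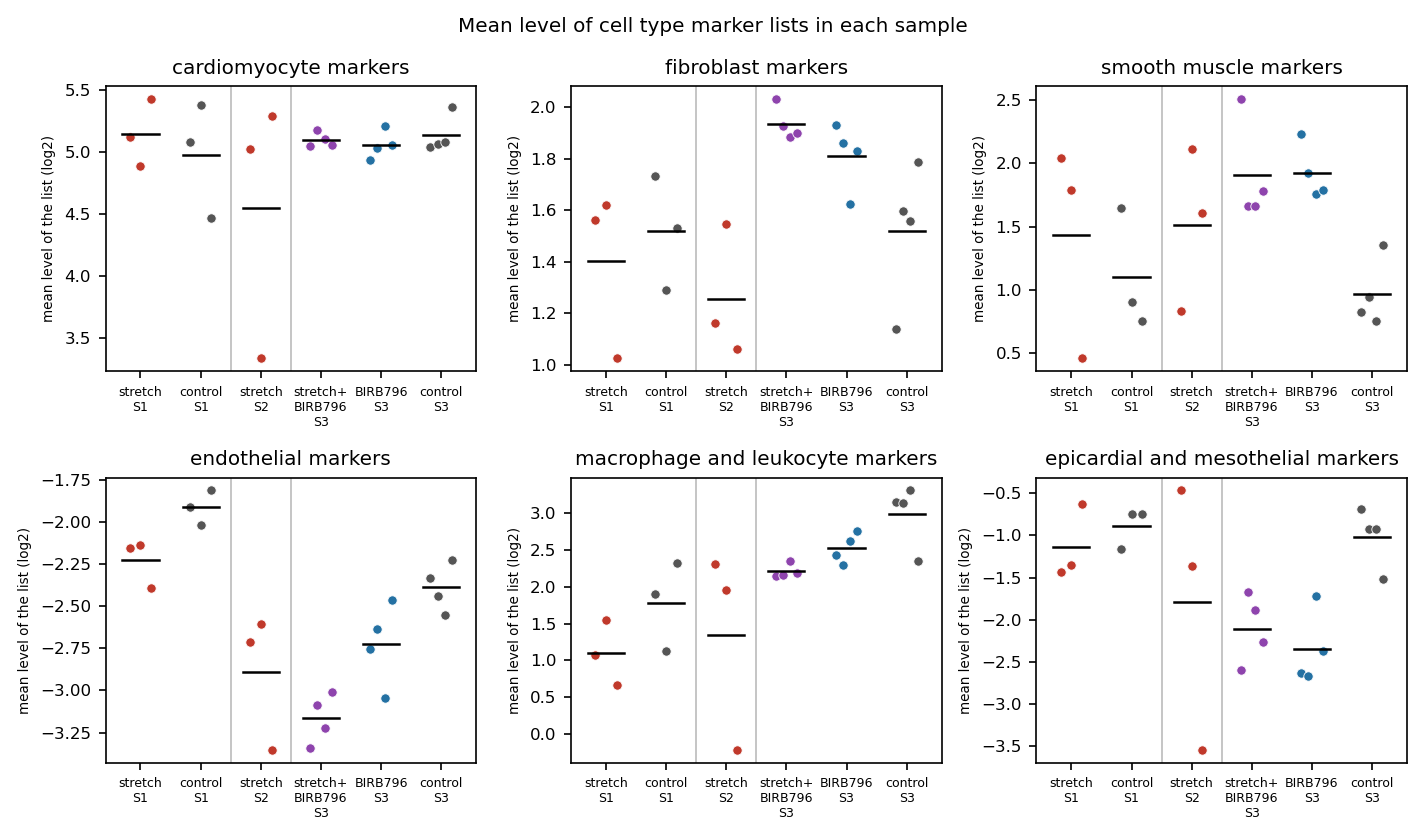
Mean level (log2) of 6 cell type marker lists in each sample, by group and scan session (S1 to S3); points are samples and bars are means. In session 3 the smooth muscle list spans 1.66 to 2.51 in stretch with BIRB796, 1.76 to 2.23 in BIRB796 and 0.75 to 1.35 in control.

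Fold changes in several cell type marker lists leaned one way with the inhibitor, but over all samples 0 markers were called in any list. On session 3 alone 4 of 10 smooth muscle, 1 of 14 fibroblast and 1 of 10 chondrocyte markers rose. In that fit 3 of 11 epicardial and mesothelial markers fell, with 1.96% of all genes called. With control replicates 5 and 6 averaged it called 0 genes. In bulk tissue, fewer cells of a type and less RNA per cell cannot be told apart. For the smooth muscle list (10 of 10 genes measured) the log2 of the summed level was 6.68 to 7.09 in BIRB796 and 6.03 to 6.41 in session 3 control. For the epicardial and mesothelial list (11 of 11) it was 2.51 to 3.55 in BIRB796 and 3.47 to 4.12 in session 3 control. Muc16 of that list was above background on 0 of 4 stretch with BIRB796 arrays, 1 of 4 BIRB796 arrays and 6 of 7 control arrays. For the fibroblast list (14 of 14) the ranges overlapped, at 8.95 to 9.20 in BIRB796 and 8.61 to 9.28 in control. For the macrophage and leukocyte list (12 of 12) all 12 fold changes were negative, with a median of -0.43 and 0 called, and the log2 of the summed level was 7.13 to 7.62 in BIRB796 and 7.12 to 8.03 in session 3 control. For the endothelial list (10 of 10) 9 fold changes were negative, with 0 called. Its log2 summed level did not overlap, at 1.82 to 2.06 in BIRB796 and 2.22 to 2.62 in session 3 control. Its mean levels did overlap, at -3.04 to -2.46 in BIRB796 and -2.55 to -2.23 in session 3 control. For the chondrocyte list (10 of 11) 9 fold changes were positive, with a median of 0.28 and 0 called over all samples. Its log2 summed level did not overlap, at 0.02 to 0.93 in BIRB796 and -0.33 to -0.15 in session 3 control. Its mean levels did not overlap either, at -4.39 to -3.69 in BIRB796 and -4.79 to -4.52 in session 3 control. The part of these lists in the values of the proteoglycan genes was not tested. All 10 measured chondrocyte markers but Cnmd, Matn1 and Matn3 were above background on all arrays.

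Stretch in the presence of BIRB796 went with lower Ogn and Omd levels than BIRB796 alone, again short of the test. Ogn levels were 3.20, 3.32, 3.31 and 3.38 in stretch with BIRB796, below all 4 BIRB796 levels of 3.56 to 3.74. Omd levels were -2.79, -2.93, -3.06 and -2.64 in stretch with BIRB796, below all BIRB796 levels of -2.61 to -2.45. The fold changes were -0.34 ± 0.18 for Ogn and -0.33 ± 0.18 for Omd, each with an adjusted p of 1.00. Of the 9 genes 0 were called at an adjusted p under 0.05, against 0% of all genes. At an unadjusted p under 0.05 there were 0 of the 9, against 1.81% of all genes. The groups did not overlap for 2 of 9 genes, against 5.38% of all genes. On session 3 alone, with 0.0469% of all genes called, the adjusted p was 0.21 for Ogn and 0.435 for Omd. Within slides, Ogn in stretch with BIRB796 lay below BIRB796 by 0.48 on slide 6 and 0.24 on slide 9, and Omd by 0.34 on slide 6 and 0.09 on slide 9. The log2 of the summed endothelial level did not overlap either, at 1.47 to 1.79 in stretch with BIRB796 and 1.82 to 2.06 in BIRB796. The mean endothelial levels did overlap, at -3.34 to -3.01 in stretch with BIRB796 and -3.04 to -2.46 in BIRB796. Of the 10 endothelial fold changes 9 were negative, with 0 called. All 12 macrophage and leukocyte fold changes were negative, with a median of -0.32 and 0 called, and a log2 summed level of 6.94 to 7.17 in stretch with BIRB796 and 7.13 to 7.62 in BIRB796. Of the 10 chondrocyte fold changes 8 were negative, with a median of -0.28 and 0 called. The log2 summed chondrocyte level overlapped, at -0.42 to 0.39 in stretch with BIRB796 and 0.02 to 0.93 in BIRB796. The part of these lists in the Ogn and Omd values was not tested.

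The stretch differences for Ogn and Omd were thus negative both without and with the inhibitor, and the difference between them did not pass the test. The stretch effect with BIRB796 minus that without was 0.30 ± 0.28 for Ogn and 0.24 ± 0.28 for Omd, with 95% intervals of -0.28 to 0.88 and -0.34 to 0.82. Over the 9 genes that term ran from -0.34 for Vcan to 0.32 for Lum. At an adjusted p under 0.05, 0 of the 9 were called, against 0% of all genes. At an unadjusted p under 0.05 there were 0 of the 9, against 1.29% of all genes. The 95% intervals of the difference reached beyond 0.5 log2 units on at least the upper side for all 9 genes. No other member passed the test between stretch with BIRB796 and BIRB796. Among them Fmod had the lowest value, with levels of 2.85, 2.27, 2.33 and 2.08 in stretch with BIRB796 and 3.27, 2.70, 2.87 and 2.66 in BIRB796, and a fold change of -0.49 ± 0.37.

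Tissue with both treatments differed from control most in Lum and Aspn. Lum levels were 1.11, 0.52, 0.12 and 0.52 in stretch with BIRB796, all above the session 3 control levels of -0.89 to -0.19. Aspn levels were 1.30, 0.75, 0.68 and 1.11 in stretch with BIRB796, all above the 3 control levels of 0.34 to 0.59. The fold changes were 1.21 ± 0.58 for Lum (2.31-fold, adjusted p = 0.526) and 0.50 ± 0.18 for Aspn (1.41-fold, adjusted p = 0.34). Of the 9 genes 0 were called at an adjusted p under 0.05, against 0.098% of all genes. At an unadjusted p under 0.05 there was 1 of the 9, against 9.6% of all genes. The groups did not overlap for 2 of 9 genes, against 17.1% of all genes. Ogn, at 3.20 to 3.38, overlapped the control range of 3.18 to 3.36, with a fold change of 0.05 ± 0.18. In the same samples the log2 of the summed smooth muscle level was 6.60 to 7.35 in stretch with BIRB796 and 6.03 to 6.41 in control. The log2 summed endothelial level was 1.47 to 1.79 in stretch with BIRB796 and 2.22 to 2.62 in control, and Esam, an adhesion molecule of that list, fell (-1.65 ± 0.25, adjusted p = 0.0248). For the epicardial and mesothelial list it was 2.63 to 3.34 in stretch with BIRB796 and 3.47 to 4.12 in control. For the macrophage and leukocyte list it was 6.94 to 7.17 in stretch with BIRB796 and 7.12 to 8.03 in control. On session 3 alone 6 of 10 smooth muscle markers rose, while 5 of 10 endothelial, 5 of 12 macrophage and leukocyte and 3 of 11 epicardial and mesothelial markers fell. For the fibroblast list the mean levels did not overlap, at 1.89 to 2.03 in stretch with BIRB796 and 1.14 to 1.79 in session 3 control. The log2 of its summed level did overlap, at 9.18 to 9.33 in stretch with BIRB796 and 8.61 to 9.28 in session 3 control. Of its 14 fold changes 11 were positive, with a median of 0.29 and 0 called over all samples. On session 3 alone 2 of those 14 genes rose. The part of these lists in the Lum and Aspn values was not tested.

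On session 3 alone, 7.57% of all genes and 0 of the 9 were called for stretch with BIRB796 against control, with an adjusted p of 0.0608 for Lum and 0.0712 for Aspn. Lum passed in 3 of 12 fits that left out 1 sample, with fold changes of 1.03 to 1.36. Within slides, Lum in stretch with BIRB796 lay above control by 1.99 on slide 6 and 0.51 on slide 8. The comparison of stretch with BIRB796 against stretch has no scan session that holds both groups, so its value is built from sessions 1 and 3. It gave 0.68 ± 0.28 for Ogn and 0.75 ± 0.28 for Omd, each with an adjusted p of 1.00. At an adjusted p under 0.05, 0 of the 9 genes were called, against 0% of all genes. At an unadjusted p under 0.05 there were 2 of the 9, against 2.4% of all genes. These comparisons share control samples with those above.

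Several members varied together across samples. Ogn and Omd, neighbours on chromosome 17, had r = 0.811 and Spearman's rho = 0.748 over 21 samples after centring each session (permutation within sessions, two-sided, p = 0.00024 and 0.00094). Lum and Aspn, on different chromosomes, had r = 0.758 and rho = 0.761 over 20 samples (permutation p = 0.00017 and 0.00045). Adjusted over the 36 pairs of members, these p-values were 0.00432 and 0.0169 for Ogn with Omd, and 0.00432 and 0.0162 for Lum with Aspn. Without the 2 samples farthest from the median of the first gene, r was 0.703 for Ogn with Omd and 0.804 for Lum with Aspn.

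Within session 1 and session 3, r was 0.833 and 0.861 for Ogn with Omd, and 0.873 and 0.723 for Lum with Aspn, over 6 samples in session 1 and 12 or 11 in session 3. After centring on each group within each session, r was 0.630 for Ogn with Omd and 0.737 for Lum with Aspn, and these values were not tested. The permutations exchanged samples of different groups within a session, so differences shared by a group enter the p-values. Fmod with Prelp, neighbours on chromosome 13, came next at r = 0.682 (permutation p = 0.0102, adjusted p = 0.123), and r was 0.415 without the 2 farthest samples. Dcn and Lum, neighbours on chromosome 7 whose probes share the printed run, were not among the 10 pairs with the highest r. The samples of a session share slides and scan settings.

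**Figure D5:**
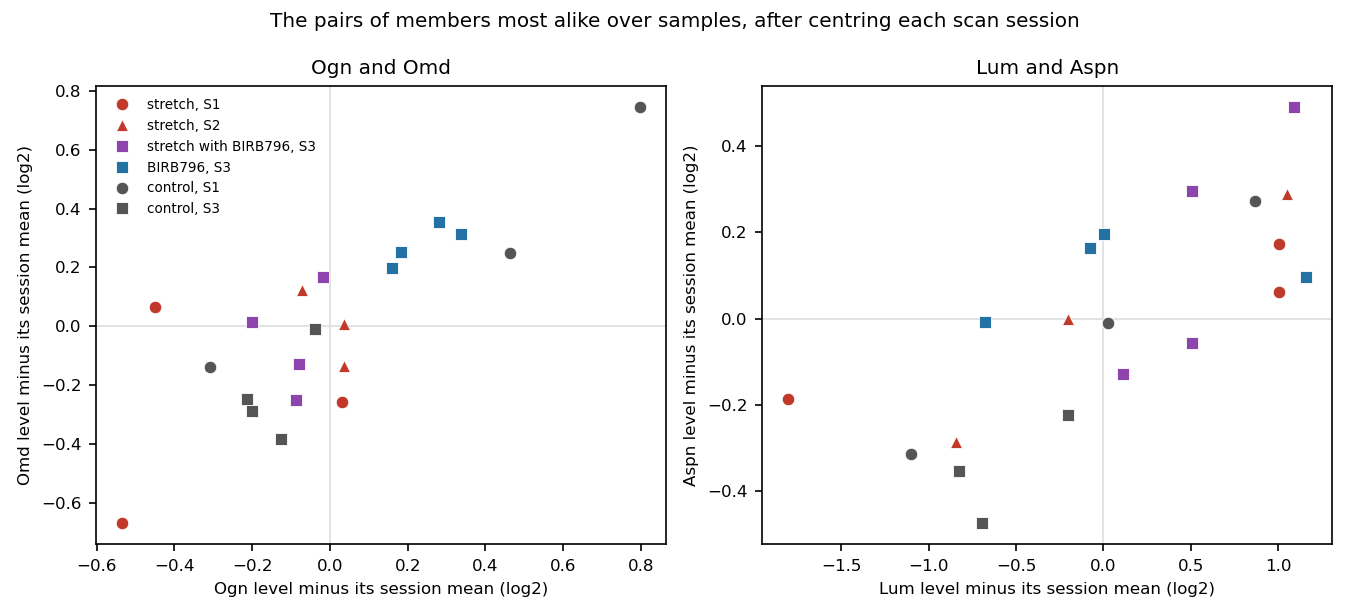
Level minus the session mean (log2) of Omd against Ogn (left) and of Aspn against Lum (right), for 21 and 20 samples; colours are groups and marker shapes are scan sessions (S1 to S3). Control replicate 3 has the highest and stretch replicate 1 the lowest values of both Ogn and Omd, and the 4 BIRB796 samples are above their session mean for both genes.

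For each member the genes outside the set with the most similar pattern were found by session-centred r over the samples of the fit. The search left out genes with a missing value and those named only by a probe, an accession, or a LOC or RGD number. Lum was most like Rgs5 (r = 0.909), a pericyte and smooth muscle gene, and Kif23 (r = 0.902). Aspn was most like Cthrc1 (r = 0.903), a collagen-associated secreted protein gene, and Rgs5 (r = 0.894, 20 samples). Rgs5 itself had fold changes of 1.87 ± 0.67 both for stretch with BIRB796 and for BIRB796 against control, and 0.40 ± 0.78 for stretch against control. Ogn was most like Colec10 (r = 0.793) and Kif20b (r = 0.762), and Omd most like Mylip (r = 0.808) and Elmo2 (r = 0.763), both below the r of Ogn with Omd. Vcan was most like Rai14 (r = 0.961) and Nnmt (r = 0.957), and Prelp most like Slc9a8 (r = 0.958) and Th (r = 0.938). Bgn was most like Rplp0 (r = 0.941), a ribosomal protein gene, and Stfa2 (r = 0.931). Fmod was most like Poc1a (r = 0.869) and Lig1 (r = 0.865), and Dcn most like Fads6 (r = 0.840) and 2700097O09Rikl (r = 0.825). These r values are a description, were not tested, and were not repeated without the farthest samples. After centring, the samples farthest from 0 were in session 2 for Vcan and Bgn. They were stretch replicates 6 and 7 for Vcan (1.04 and -1.22), and stretch replicates 7 and 4-5 for Bgn (0.60 and -0.43).

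The members also differed between scan sessions within a group. Control levels in session 1 and session 3 averaged 4.04 ± 0.43 (SD, n = 3) and 2.62 ± 0.18 (SD, n = 4) for Fmod, and -1.74 ± 0.54 (SD, n = 3) and -3.37 ± 0.11 (SD, n = 4) for Prelp. The ranges did not overlap for either gene. For Ogn they averaged 2.98 ± 0.57 (SD, n = 3) and 3.25 ± 0.08 (SD, n = 4), and for Vcan 1.71 ± 0.14 (SD, n = 3) and 1.88 ± 0.24 (SD, n = 4), with overlap for both.

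Of the other genes of the pathway, 0 passed the test over all samples in any list and comparison. The lists were 8 of 10 further small leucine-rich repeat genes, 25 of 25 genes of chondroitin and dermatan sulfate synthesis, 10 of 11 of keratan sulfate synthesis, 22 of 24 hyaluronan and versican partners, 11 of 13 proteases, 12 of 12 collagen fibril partners and 19 of 20 signalling partners. For stretch against control the list medians ran from -0.27 for the proteases to 0.29 for the further small leucine-rich repeat genes, against 0.08 over all genes. All 8 of those genes had positive values there, as did 14719 of 23479 genes. Epyc, which encodes epiphycan and lies in the Dcn and Lum cluster, had 0.87 ± 0.88.

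On session 3 alone, enzymes of keratan sulfate sulfation moved in opposite directions in stretch with BIRB796 against control. Chst1, a galactose sulfotransferase that acts on keratan sulfate, fell (-1.28 ± 0.14, adjusted p = 0.00342), and Chst2, which sulfates N-acetylglucosamine, rose (0.67 ± 0.12, adjusted p = 0.0161). B3gnt7, which extends the chain, fell (-0.80 ± 0.14, adjusted p = 0.015). Of the 10 genes of that list 1 rose and 2 fell. Chst1 was called in 12 of 12 fits that left out 1 sample, and Chst2 and B3gnt7 in 9 of 12. With control replicates 5 and 6 averaged Chst1 was called (adjusted p = 0.0213). Chst2 (adjusted p = 0.0555) and B3gnt7 (adjusted p = 0.0528) then were not. Chst1 also fell (-0.79 ± 0.14, adjusted p = 0.0301) and Chst2 rose (0.56 ± 0.12, adjusted p = 0.0482) in BIRB796 against control. They were called there in 4 of 12 and 2 of 12 fits that left out 1 sample, and neither with control replicates 5 and 6 averaged.

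Among the hyaluronan and versican partners in the same fit of stretch with BIRB796 against control, 3 of 22 rose and 1 fell. Hapln1, the link protein that ties versican to hyaluronan and the neighbour of Vcan on chromosome 2, fell (-0.92 ± 0.16, adjusted p = 0.0147). Fbln2, a fibulin that binds versican, rose (1.07 ± 0.21, adjusted p = 0.0206), as did Acan, which encodes aggrecan (2.09 ± 0.51, adjusted p = 0.0371). Acan is also on the chondrocyte marker list. Hapln1 and Fbln2 were called in 9 of 12 fits that left out 1 sample and Acan in 4 of 12. With control replicates 5 and 6 averaged none of these was called (adjusted p = 0.0530 for Hapln1, 0.0710 for Fbln2 and 0.106 for Acan). Vcan itself had 0.31 ± 0.14 on session 3 alone (adjusted p = 0.189).

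Of the further small leucine-rich repeat genes, 1 of 8 rose, namely Epyc (2.19 ± 0.38, adjusted p = 0.0147, called in 9 of 12 fits that left out 1 sample). Of the 12 collagen fibril partners 3 rose, among them Col12a1 (1.02 ± 0.21, adjusted p = 0.0221, 7 of 12), a collagen of fibril surfaces, and Col5a2 (0.55 ± 0.13, adjusted p = 0.0316, 6 of 12). Of the 25 genes of chondroitin and dermatan sulfate synthesis 4 rose, among them Chpf2 (0.40 ± 0.09, adjusted p = 0.0284, 5 of 12). Of the 19 signalling partners 2 rose and 4 fell, among them Tgfb2 (1.23 ± 0.32, adjusted p = 0.0449, 3 of 12) and Bmp2 (-0.81 ± 0.14, adjusted p = 0.0136, 10 of 12). These counts stand against 7.57% of all genes called in that fit, 3.1% higher and 4.47% lower. The number of genes called was 240, 103 and 219 without control replicate 4, 5 and 6, 3803 without control replicate 7, and 177 with control replicates 5 and 6 averaged. With that averaging Epyc (adjusted p = 0.0528), Col12a1 (0.0724), Col5a2 (0.0931), Chpf2 (0.0840), Tgfb2 (0.102) and Bmp2 (0.0528) were not called.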

How the data were processed

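The samples were hybridised to 1-colour Agilent rat arrays. The authors deposited scanner intensity files whose background subtraction and detrending were done within each array by the Agilent scanner software, per the file headers, and a value table of log2 values whose baseline is not given in the sources used here. Here, log2 of the processed signal minus each array's 75th percentile was taken, outlier-flagged spots (293 probe values) were left out, spots of a probe were averaged, and a probe was kept (26884 of 30367) if at least 4 arrays had it well above background. The brightest probe stood for each gene. Names were updated through RefSeq by accession for 17998 probes, symbol for 2359 and synonym for 615; 9395 kept the file's name.

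Groups were compared with limma 3.58.1 in R 4.3.3, with the scan session as a term, 21 samples, Benjamini-Hochberg adjustment over 23479 genes and a call at an adjusted p under 0.05. The number of arrays limits the precision. In session 1, same-numbered stretch and control arrays shared a slide, and their deviations from the group means correlated at 0.505, 0.148 and 0.569 for replicates 1, 2 and 3, so the numbers were treated as pairs in the blocked fit. In simulated data over 23479 genes, 100 genes were given each size of change, and the share of those 100 that was called was counted. For changes of 1 and 2 log2 units it was 26% and 72% in stretch against control. It was 46% and 80% for BIRB796 against control and 42% and 87% for stretch with BIRB796 against BIRB796. For stretch with BIRB796 against control it was 50% and 83%. The Benjamini-Hochberg cut-off is stricter where fewer genes change. These shares may thus be too high for a gene that changes alone. The members and lists were chosen with earlier results of these data known. Named genes were the members, for each list at most 2 called genes in each direction, and for each member the 2 most similar genes. Alternatives changed the batch term, samples, slide block, background correction, scaling, filter, value table, probe rule and left-out replicates. The series title speaks of tyrosine kinase and the treatment protocol of p38, and the protocol was followed.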

Additional observations from a re-analysis of the deposited data

Results flagged for a closer look

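Of 36 combinations of a gene and a group with at least 4 samples, 3 held a sample far from the others by Dixon's test at the 95% level, a rule by which chance marks about 1 in 20. Ogn on control replicate 2 was the lowest of 7 control samples, at 2.36 with the next at 3.13. That array lies in scan session 1, and the difference between stretch and control for Ogn changed direction on its slide. Prelp on stretch with BIRB796 replicate 1 was the highest of 4, at -3.10 with the next at -3.49. Vcan on control replicate 7 was the highest of 7 control samples, at 2.22 with the next at 1.82. The cause was not tested for any of these.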

How the results depend on the processing

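With 1 sample left out at a time, the direction was kept in 1094 of 1134 values of a member in a comparison, and 0 values passed the test. Those that changed direction had these ranges. For stretch against control they were -0.465 to 0.178 for Dcn, -0.380 to 1.07 for Lum, -0.102 to 0.035 for Bgn, -0.904 to 0.061 for Fmod, -0.423 to 0.623 for Prelp and -0.115 to 0.178 for Aspn. For stretch with BIRB796 against BIRB796 Aspn ran from -0.076 to 0.131. For stretch with BIRB796 against stretch they were -0.389 to 0.255 for Dcn, -0.296 to 0.669 for Fmod and -0.678 to 0.368 for Prelp. For the difference between the stretch effects they were -0.083 to 0.561 for Dcn, -0.619 to 0.833 for Lum, -0.554 to 0.410 for Fmod, -0.806 to 0.240 for Prelp and -0.140 to 0.153 for Aspn. Under the other alternatives 574 of 603 values kept their direction and 8 passed the test. The file set as batch term called 2 members for stretch against control and 2 for stretch with BIRB796 against stretch. It gave 0.00446 for Bgn and -0.186 for Vcan in stretch against control, 0.00223 for Dcn in stretch with BIRB796 against control, 0.725 for Dcn, -0.217 for Fmod and 0.731 for Vcan in stretch with BIRB796 against stretch, and -0.331 for Fmod, -0.138 for Aspn and 0.285 for Vcan for the difference between the stretch effects. With no batch term 1 member was called in stretch against control and 1 in stretch with BIRB796 against stretch. It gave -0.158 for Vcan in stretch against control, -0.352 for Fmod and -0.570 for Prelp in BIRB796 against control, 0.026 for Dcn and -0.00176 for Omd in stretch with BIRB796 against control, 0.753 for Dcn, -0.760 for Fmod and 0.540 for Vcan in stretch with BIRB796 against stretch, and -0.409, -0.138 and 0.257 for Fmod, Aspn and Vcan for the difference between the stretch effects. Session 3 alone called 2 members for BIRB796 against control. Scaling by the array median gave -0.030 for Prelp and -0.00889 for Aspn in stretch against control and 0.00759 for Dcn in stretch with BIRB796 against stretch. Normexp with quantile scaling gave -0.00177 for Aspn in stretch against control, -0.070 for Bgn in stretch with BIRB796 against BIRB796, and -0.047 for Ogn and 0.038 for Prelp in stretch with BIRB796 against control. The mean of a gene's probes gave 0.0085 for Vcan in stretch with BIRB796 against stretch, and slide as a random block gave -0.020 for Dcn in stretch with BIRB796 against BIRB796. The cause was not tested for any of these.

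Counts over all genes moved more. For stretch against control 2042 genes were called with the file set term, 296 with no batch term and 1 with slide as a random block, against 0. For BIRB796 against control the counts were 460 on session 3 alone, 4 with the array median and 26 without stretch replicates 4 and 5, against 0. For stretch with BIRB796 against BIRB796 session 3 alone gave 11, against 0. For stretch with BIRB796 against control they were 1777 on session 3 alone, 80 with slide as a random block, 3 with the file set term, 1 with no batch term, 0 with control replicates 5 and 6 averaged, 0 without control replicate 4 and 231 without stretch replicate 7, against 23. For stretch with BIRB796 against stretch they were 293 with the file set term and 153 with no batch term, against 0.

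The replicate block called 0 members, as without it. With it, the paired value of stretch against control in session 1 was -0.63 ± 0.34 for Ogn and -0.57 ± 0.22 for Omd (limma, adjusted p = 0.903 for both). Stretch with BIRB796 and BIRB796 share only replicate numbers, with correlations of 0.530, 0.014, 0.084 and 0.076 between same-numbered samples. Dim arrays of session 2 and the number of arrays limit what could be detected. The averaging of control replicates 5 and 6 and the session 3 fits with 1 sample left out were chosen after seeing the data.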
